A study of Mus musculus with 2 samples.

Results

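C1q-like proteins (C1ql1 to C1ql4) and the brain angiogenesis inhibitor receptors BAI1 to BAI3 (now Adgrb1 to Adgrb3) were described in mouse Purkinje cells, the large inhibitory output neurons of the cerebellar cortex. The 7 genes, 4 ligands and 3 receptors, were picked by symbol from the 43346 mouse gene entries of the gene tables, and all 7 were present. The study sequenced RNA over 200 nt from 2 pools of 50 laser-captured Purkinje cells, called pool 1 and pool 2 by their labelled replicate numbers. Both pools came from adult male wild-type C57Bl6 mice (strain B6NCrl) aged 8 months, with no transgene and no treatment named in the labels. They form 1 group, so there is no contrast between conditions, and differences between the pools are given without a test. The donor identifier is the same for both, so nothing says that they came from different animals, and their spread may be technical. The labels link pool 2 to a Smart-seq protocol, which amplifies cDNA from few cells, and the protocol behind pool 1 was not given in those labels.

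BAI receptors are adhesion G protein-coupled receptors, whose long extracellular part carries thrombospondin type 1 repeats and is joined to a domain that can cleave itself just before the membrane. In the cerebellum, C1ql1 is made by inferior olive neurons and released from their climbing fibres, and BAI3 on the Purkinje cell receives it, a pair known to act in the strengthening and upkeep of the climbing fibre synapse. BAI1 is also known as a receptor for phosphatidylserine on dying cells, which signals through ELMO, Dock and Rac proteins. C1ql2 and C1ql3 are known elsewhere in the brain as secreted organizers that bind kainate receptors and neurexin-3.

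The pools held 23830685 and 27907662 expected counts (reads assigned to genes by the authors' estimation), of which 1.40% and 0.940% were ERCC spike-ins, synthetic RNAs added as a reference. Levels are in TPM, each transcript's length-corrected part of a fixed library total. All 9 Purkinje cell markers were detected, that is at 1 TPM or more in each pool, with a summed TPM of 41063 in pool 1 and 39669 in pool 2. Of all protein-coding genes, 51.7% were detected. Markers of Bergmann glia and astrocytes, which sit among Purkinje cells, were also present, with summed TPM of 4241 and 4500. Blood markers differed in sum, at 651 TPM in pool 1 and 2274 TPM in pool 2. In pools of cells, fewer cells of a type and less RNA per cell cannot be told apart.

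The receptor gene Adgrb3 carried nearly all of the receptor RNA, and the other 2 receptors were low. The ligand genes lay below 1 TPM and, apart from C1ql3 in pool 2, at or near the counting limit. Of the 7 genes, 2 (Adgrb3 and Adgrb1) were detected in this sense, against 28.8% of all mouse genes and 51.7% of protein-coding genes. The order of mean TPM was Adgrb3, Adgrb1, Adgrb2, C1ql3, C1ql1, C1ql2 and C1ql4. The counting intervals of C1ql3, C1ql1 and C1ql2 overlapped in pool 1, so their order is not resolved there. In pool 2 the interval of C1ql1 overlapped those of C1ql3 and C1ql2, while that of C1ql3 lay above that of C1ql2. All intervals here are exact Poisson at 95% and cover counting error only, since PCR copies that carry no molecular identifier are not separate molecules.

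**Figure D1:**
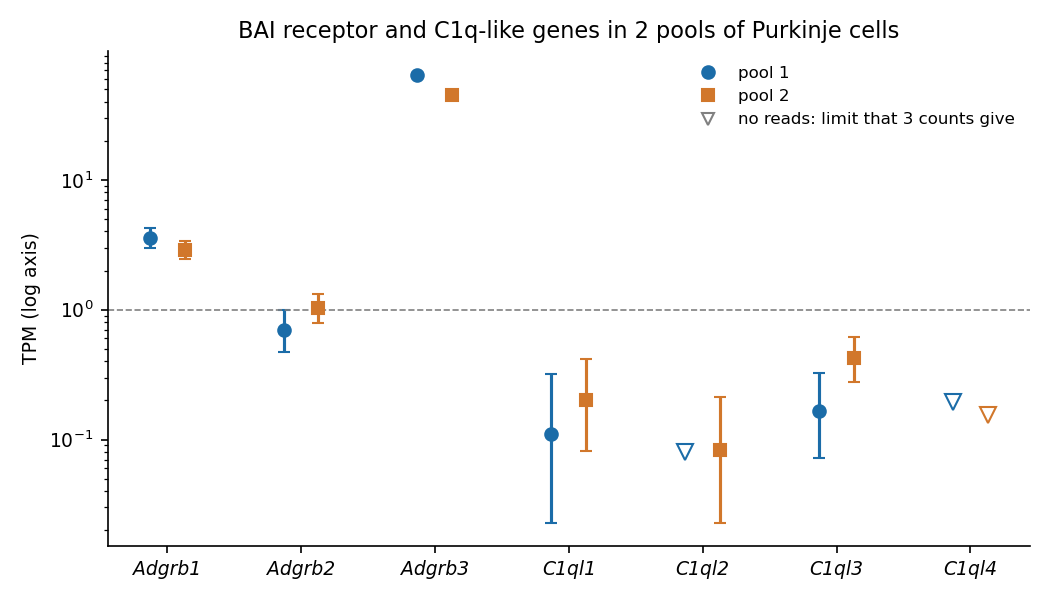
TPM of the 7 genes (log axis) in pool 1 (circles) and pool 2 (squares), with 95% Poisson counting intervals as bars and open triangles where a pool had no reads, placed at the TPM that 3 counts would give. The dashed line marks a TPM of 1. Adgrb3 stands at 64.37 and 44.62 TPM, at least 15.4 times the TPM of every other gene of the set in the same pool, and the 4 ligand genes lie below 1 TPM in both pools.

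Adgrb3, the receptor for C1ql1 on Purkinje cells, spans 762 kb of the minus strand of chromosome 1 (ENSMUSG00000033569.13, GRCm38, chr1:25067476-25829707). It held 5058 expected counts in pool 1 and 4238 in pool 2. Its TPM was 64.37 (interval 62.6 to 66.2) in pool 1 and 44.62 (43.3 to 46.0) in pool 2, a mean of 54.5 ± 13.97 (SD, n = 2). The pools differed by more than counting error, with pool 1 the higher on the TPM scale. By mean TPM, Adgrb3 ranked 2080 among protein-coding genes and stood at percentile 81.8 of those with a mean TPM of at least 1.

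Within the receptor family the share of Adgrb3 was similar in both pools. It made up 93.8% of the summed receptor TPM in pool 1 and 91.9% in pool 2 (92.8 ± 1.30%, SD, n = 2). Its TPM was 18.0 times that of Adgrb1 in pool 1 and 15.4 times in pool 2, and 92.0 and 43.3 times that of Adgrb2.

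Adgrb1, the phosphatidylserine receptor, lies on the plus strand of chromosome 15 (ENSMUSG00000034730.12, GRCm38, chr15:74516195-74589465). It held 135 and 145 expected counts. Its TPM was 3.58 (2.998 to 4.23) in pool 1 and 2.89 (2.44 to 3.40) in pool 2, with overlapping counting intervals, and its mean was 3.24 ± 0.488 (SD, n = 2). That put it at percentile 20.0 of protein-coding genes with a mean TPM of at least 1, and at 5.21% and 5.95% of receptor TPM. BAI1 is also known from astrocytes, whose 9 markers were all detected in both pools, and their part in the Adgrb1 level was not tested.

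Adgrb2, a receptor of the family known mainly from the brain, lies on the plus strand of chromosome 4 (ENSMUSG00000028782.10, GRCm38, chr4:129984870-130022633). Its 31 and 63 expected counts gave 0.70 TPM (0.473 to 0.989) in pool 1 and 1.03 TPM (0.792 to 1.32) in pool 2. The intervals overlapped, and the gene passed a TPM of 1 in pool 2 alone.

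The 4 ligand genes are close relatives. Their coding sequences were 70.7 to 75.8% identical between pairs, and the longest run of identical bases in any pair was 38, between C1ql2 and C1ql3. The last 90 coding bases, which encode the end of the C1q domain that forms the trimeric head of the protein, are shown because they bear on how well reads of these genes can be told apart. Capitals mark the bases at which the 4 genes differ, and the last 3 bases are the stop codon (GENCODE M21 transcripts, GRCm38, 5′ to 3′ on the strand of the gene).
C1ql1 (chr11:102939733-102939822, minus strand): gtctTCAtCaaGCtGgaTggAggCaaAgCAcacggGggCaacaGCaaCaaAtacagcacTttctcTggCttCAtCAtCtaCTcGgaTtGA
C1ql2 (chr1:120342485-120342574, plus strand): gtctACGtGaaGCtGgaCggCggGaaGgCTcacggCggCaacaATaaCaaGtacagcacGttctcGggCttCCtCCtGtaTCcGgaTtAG
C1ql3 (chr2:13004265-13004354, minus strand): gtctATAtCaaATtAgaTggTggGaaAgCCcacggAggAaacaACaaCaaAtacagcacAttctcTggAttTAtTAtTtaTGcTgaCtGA
C1ql4 (chr15:99084754-99084843, minus strand): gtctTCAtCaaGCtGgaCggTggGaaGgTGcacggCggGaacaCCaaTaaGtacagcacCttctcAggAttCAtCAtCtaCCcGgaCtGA
Of the 90 aligned positions, 57 held the same base in all 4 genes and 33 differed, 24 of them at the third position of a codon. No window of 100 bases of a ligand transcript occurred in a transcript of another ligand, or on the same strand in that of any other gene, so in this annotation no full window of that length is shared within the family.

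C1ql1, the climbing fibre ligand of BAI3 (ENSMUSG00000045532.5, GRCm38, chr11:102939264-102946688, minus strand), held 3 expected counts in pool 1 and 7 in pool 2. Its TPM was 0.11 (0.0227 to 0.322) and 0.20 (0.0814 to 0.417), with overlapping intervals. The TPM of Adgrb3 was 585 times that of C1ql1 in pool 1 and 223 times in pool 2. Markers of inferior olive neurons, the known source of C1ql1, were also near the limit: 0 of 5 were detected, against 51.7% of protein-coding genes. None of these markers reached a TPM of 1 in either pool, and their summed TPM was 0.55 and 0.30. Slc17a6, the vesicular glutamate transporter of these neurons, had no reads in either pool.

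C1ql3 (ENSMUSG00000049630.6, GRCm38, chr2:13003457-13011806, minus strand) was the highest ligand in both pools. It held 8 expected counts in pool 1 and 25.99 in pool 2, for 0.17 TPM (0.0715 to 0.326) and 0.42 TPM (0.277 to 0.621), and the intervals overlapped. Its count is less certain than the others, because a predicted gene on the opposite strand, Gm37811, overlaps its exons over 1547 bases. Of the 2436 windows of 100 bases in the C1ql3 transcript, 59.6% occur on the other strand in Gm37811, which held 0 and 8.01 counts, and no source used here says whether the counting used strand. The posterior SD deposited with the C1ql3 count, a measure of how firmly reads were assigned, was 1.94 in pool 1 and 4.41 in pool 2, while it was 0 for the other 6 genes. C1ql3 made up 60.7% and 60% of ligand TPM.

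C1ql2 (ENSMUSG00000036907.9, GRCm38, chr1:120340582-120343174, plus strand) had no reads in pool 1, where 3 counts would give 0.0795 TPM, and 4 in pool 2, for 0.08 TPM (0.0228 to 0.214). C1ql4 (ENSMUSG00000001076.6, GRCm38, chr15:99084086-99087817, minus strand) had no reads in either pool, which allows up to 0.195 TPM in pool 1 and 0.154 TPM in pool 2 at the 874 nt of its deposited transcript (1474 nt in GENCODE M21). Absence of either RNA cannot be read from these depths.

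Summed over the 4 ligands, pool 1 held 11 counts (5.49 to 19.7) and pool 2 held 36.99 (26.0 to 51.0). In CPM, counts scaled to the library total, this was 0.462 (0.230 to 0.826) in pool 1 and 1.33 (0.933 to 1.83) in pool 2. The intervals did not overlap, so the pools differed by more than counting error. Most of these counts were those of C1ql3, with 8 in pool 1 and 25.99 in pool 2, whose assignment is less certain. For each ligand alone, the intervals of the pools overlapped. Summed receptor TPM was 68.65 and 48.54, and summed ligand TPM 0.28 and 0.70, so receptors exceeded ligands 245 times in pool 1 and 69.3 times in pool 2 (157 ± 124, SD, n = 2). Of the 11 marker lists of other cell types, 9 were also higher in summed TPM in pool 2. Besides blood they included Golgi or glycinergic neurons at 9.05 and 22.2 TPM, oligodendrocyte precursors at 2.77 and 5.00, molecular layer interneurons at 53.8 and 71.2 and granule cells at 110 and 139. Some sums turned on 1 gene: Sst had 1.01 and 13.35 TPM among the Golgi markers, and Prkcd 9.83 and 38.65 among the interneuron markers. Of the 6 interneuron markers, 3 were lower in pool 2 and 3 higher. Bergmann glia and astrocytes, also among the 9 lists, had 5 markers lower and 4 higher. Of the 6 granule cell markers with a mean TPM of at least 1, 5 were higher. Among all genes with such a mean, 58.4% were lower in pool 2 and 41.4% higher. The part of these cell types in the ligand difference was not tested.

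The transcript tables divide each receptor among its annotated transcripts. For Adgrb3, 8 of 11 annotated transcripts held reads. A transcript was called full-length here when its coding sequence had at least 80% of the length of the longest one of its gene. The transcript with the highest TPM in both pools was not the full-length one but Adgrb3-203, a protein-coding model that starts late in the gene. The beginnings of the coding sequences of Adgrb3-207, the full-length transcript, and of Adgrb3-203 are shown with the start codon in capitals, beside the matching pair of Adgrb1, because the later start leaves out most of the extracellular part (GENCODE M21 transcripts, GRCm38, 90 coding bases, 5′ to 3′ on the strand of the gene).
Adgrb3-207, full-length (chr1:25826671-25826760, minus strand): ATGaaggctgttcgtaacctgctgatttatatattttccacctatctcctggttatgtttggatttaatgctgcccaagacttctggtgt
Adgrb3-203, partial (chr1:25226731-25226820, minus strand): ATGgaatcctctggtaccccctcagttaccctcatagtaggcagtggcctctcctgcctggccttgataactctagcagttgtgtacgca
Adgrb1-201, full-length (chr15:74529157-74529246, plus strand): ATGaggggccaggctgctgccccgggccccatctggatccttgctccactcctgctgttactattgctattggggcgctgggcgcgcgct
Adgrb1-203, partial (chr15:74569872-74569961, plus strand): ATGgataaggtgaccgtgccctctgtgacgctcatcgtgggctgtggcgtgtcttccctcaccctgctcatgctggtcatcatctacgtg
The coding sequence of Adgrb3-203 is the exact in-frame 3′ end of that of Adgrb3-207. It holds 652 codons of 1522, so 870 codons (57.1%) at the amino-terminal side are missing. Adgrb1-203 stands to Adgrb1-201 in the same way, with 642 codons of 1582 and 940 (59.4%) missing.

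Adgrb3-203, with 16 exons and 2953 nt, had 27.81 TPM in pool 1 and 20.98 TPM in pool 2, which was 43.2% and 47.0% of the gene's TPM (45.1 ± 2.69%, SD, n = 2). Adgrb3-207, with 31 exons and 5448 nt, had 13.90 and 7.09 TPM, or 21.6% and 15.9% of the gene. The pools therefore gave the same order, with the partial model first. The assignment rests on estimation, since 91.7% of the bases of Adgrb3-203 are also exonic in Adgrb3-207, and the deposited posterior SD of its count was 34.1 in pool 1, where the count was 1575, and 30.5 in pool 2, where it was 1507. By expected counts, which do not correct for length, the 2 transcripts were closer: Adgrb3-203 held 31.1% and 35.6% of the gene's counts, and full-length transcripts together 29.4% and 22.7%.

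Retained-intron models, which keep intron sequence and have no annotated coding sequence, made up 35.1% and 37.0% of Adgrb3 TPM (22.56 and 16.49 TPM), and 39.5% and 41.7% of its counts. The highest of them was Adgrb3-210, which covers the 5′ part of the gene, at 9.34 and 5.26 TPM. Adgrb3-204 followed with 6.19 and 5.16 TPM. Adgrb3-211, a single exon of 2254 nt that shares no base with Adgrb3-207, had 3.06 and 2.75 TPM.

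**Figure D2:**
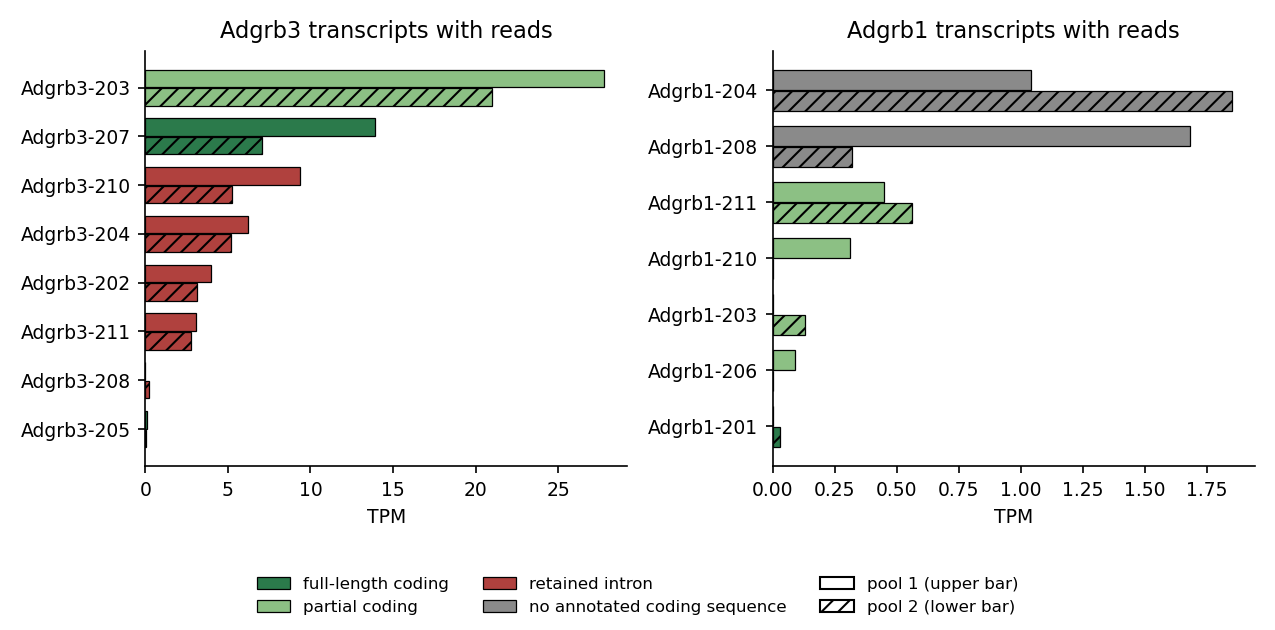
TPM of each transcript with reads of Adgrb3 (left) and Adgrb1 (right), with pool 1 as the plain upper bar and pool 2 as the hatched lower bar, coloured by class of the GENCODE model. Adgrb3-203 leads in both pools at 27.81 and 20.98 TPM, while the leading Adgrb1 transcript changes from Adgrb1-208 in pool 1 to Adgrb1-204 in pool 2.

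Adgrb1 gave a less settled picture, with 7 of 11 transcripts holding reads. Adgrb1-208 led in pool 1 at 1.68 TPM, against 0.32 TPM in pool 2, and Adgrb1-204 led in pool 2 at 1.85 TPM, against 1.04 TPM in pool 1. Both are processed transcripts at the 3′ end of the gene without an annotated coding sequence. Their expected counts were 68.7 and 16.4 for Adgrb1-208 and 47.4 and 107 for Adgrb1-204, with posterior SDs from 13.2 to 17.1, so the division between them is weakly determined. Taken as 1 class, the transcripts without a coding sequence made up 76.2% and 75.1% of Adgrb1 TPM, and the full-length Adgrb1-201 held 0 and 4.54 counts. Of the bases of Adgrb1-204 and Adgrb1-208, 96.5% and 94.7% are also exonic in Adgrb1-201. The division between coding and noncoding models therefore rests on estimation too, and these shares do not establish that most Adgrb1 RNA is noncoding.

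Adgrb2 had expected counts above 0 in 3 of 13 transcripts. The division among its full-length models is weakly determined. Adgrb2-208 had 24.7 and 36.6 expected counts, but the posterior means deposited with them were 7.47 and 14.6. Adgrb2-204, another full-length model, had 0 expected counts in both pools but posterior means of 6.86 and 11.1. The retained-intron model Adgrb2-210 took 62.9% and 59.2% of its TPM but 20.3% and 17.7% of its counts, since it is 828 nt long and the full-length Adgrb2-208 is 4871 nt. Full-length models held 79.7% and 82.3% of Adgrb2 counts. C1ql1 to C1ql4 each have 1 annotated transcript.

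The introns of Adgrb3 also hold separate gene entries with reads. On the same strand, 19 single-exon entries that GENCODE labels TEC, a class awaiting experimental testing, lie within the gene without touching its exons; they fall outside the rule for named genes and were chosen after their values were seen. All 19 were detected, against 28.8% of all mouse genes, with 22 to 1825 counts in pool 1 and 30 to 1527 in pool 2. Together they held 10850 counts in pool 1 and 8968 in pool 2, which was 2.15 and 2.12 times the count of Adgrb3 itself. Gm37602 was highest in pool 1, with 1825 counts and 1249 in pool 2, and Gm38260 was highest in pool 2, with 1527 counts and 1674 in pool 1. Per kb of sequence, the entries held 192 and 159 reads over 56.4 kb. The merged exons of all Adgrb3 models held 273 and 228 reads per kb over 18.6 kb. That merged length includes the intron sequence kept by the retained-intron models, while the full-length Adgrb3-207 has 5448 nt. It is therefore not the read density of the spliced transcript. On the CPM scale 17 of the 19 were lower in pool 2, as was Adgrb3. The share of all genes lower on that scale is not given here. The median log2 ratio on it was 0.02 over genes with a mean TPM of at least 1. All 19 lie in introns of 1 gene, so they are not separate observations. Among 214 protein-coding genes with a mean TPM of at least 1 that hold such entries, the median ratio of nested to host counts was 0.0252 and 0.0255. Adgrb3 ranked 1 in both the number and the summed count of nested entries, and in the ratio it was the highest in pool 1, while 1 other gene was at or above it in pool 2.

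**Figure D3:**
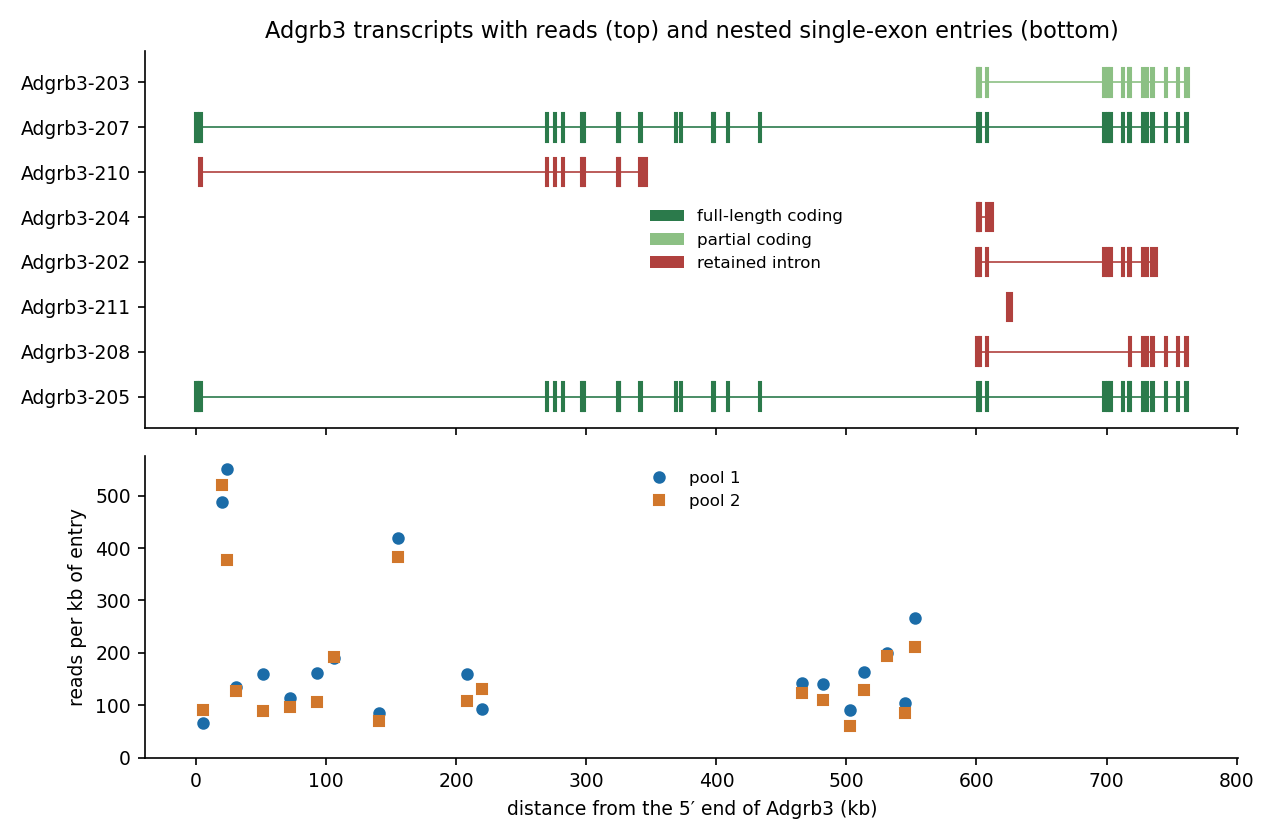
Top: exons (boxes, drawn slightly wider than scale to be visible) and introns (lines) of the Adgrb3 transcripts with reads, by distance in kb from the 5′ end of the gene. Bottom: reads per kb of each of the 19 nested entries in pool 1 (circles) and pool 2 (squares), all above 0 and all lying 5′ of the start of Adgrb3-203.

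Between the pools, Adgrb3 and Adgrb1 were lower in pool 2 and the other 4 genes with reads were higher, and no gene of the set passed a 1.5-fold difference on the log2(TPM + 1) scale, which understates ratios of low genes. With smaller pseudocounts the low ligands passed it: the log2 ratio of C1ql3 was 0.95 with a pseudocount of 0.1 and 1.26 with 0.01, and that of C1ql1 was 0.81 with 0.01, although the counting intervals of both genes overlapped between the pools. Of the 13210 genes with a mean TPM of at least 1, 7.24% were at least 1.5-fold lower in pool 2 and 4.26% at least 1.5-fold higher, and at any size 58.4% were lower and 41.4% higher. The log2 ratio of pool 2 over pool 1 was -0.52 for Adgrb3 and -0.24 for Adgrb1, against a median of -0.07 over those genes. For Adgrb2, C1ql3, C1ql1 and C1ql2 it was 0.26, 0.28, 0.11 and 0.11. Scaling to the spike-ins, whose own median ratio was -0.66, moved the median over those genes to 0.59, and the ratios of Adgrb3 and Adgrb1 turned positive, at 0.14 and 0.42. Every statement that a gene or list was lower in pool 2 therefore holds for levels relative to the other genes of the library.

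Long transcripts were lower in pool 2 in general. By mean transcript length, the median ratio was 0.11 at 500 to 1000 nt, -0.13 at 2000 to 4000 nt and -0.25 at 4000 nt or more. Adgrb3, in the class of 2000 to 4000 nt, had a ratio of -0.39 relative to its class median, and 9.33% of the 4887 genes of that class had a lower ratio. Some Purkinje cell markers with long transcripts had a ratio like that of Adgrb3: it was -0.51 for Calb1, a calcium-binding protein, -0.51 for Car8, which binds the IP3 receptor, and -0.57 for Itpr1, the IP3 receptor itself. The shorter markers did not share 1 direction, with 0.03 for Pcp4, 0.04 for Gng13 and -0.33 for Ppp1r17. Slc1a6, a glutamate transporter in the same length class as Adgrb3, had 0.57. In all, 5 of the 9 markers were lower in pool 2 and 4 were higher, against 58.4% and 41.4% of all genes. The part of transcript length in the Adgrb3 difference was not tested.

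**Figure D4:**
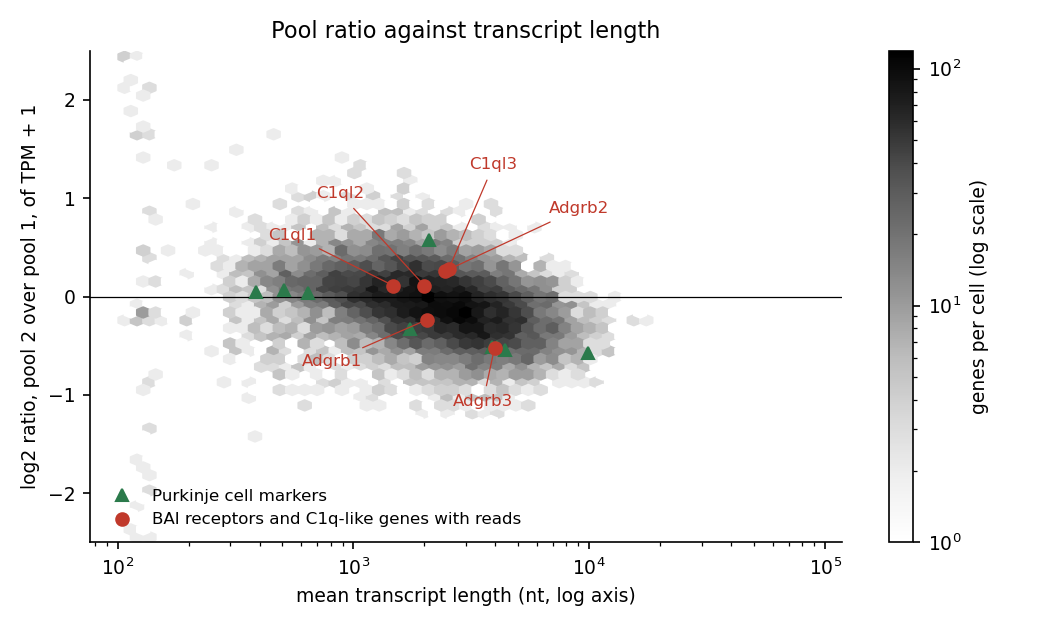
Log2 ratio of TPM + 1, pool 2 over pool 1, against mean transcript length (log axis) for genes with a mean TPM of at least 1 (grey cells, shaded by number of genes; genes beyond the axis limits are not drawn), with Purkinje cell markers as triangles and the receptor and ligand genes with reads as labelled circles. Adgrb3 lies at -0.52, below the 0 line and close to several of the Purkinje cell markers.

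Among the 29 adhesion receptor genes considered here, Adgrb3 ranked 2 by TPM in both pools, with 31.7% and 26.8% of their summed TPM. Adgra1, an orphan adhesion receptor of neurons, ranked first with 69.77 TPM in pool 1 and 62.68 in pool 2. By expected counts, which favour long transcripts, Adgrb3 ranked 1 in both pools with 43.8% and 37.7%. Next came the latrophilins Adgrl3 (23.10 and 19.16 TPM) and Adgrl2 (19.68 and 14.74 TPM), receptors for teneurins and FLRT proteins. Celsr2, a cadherin of planar cell polarity, had 7.74 and 6.51 TPM, and the latrophilin Adgrl1 had 3.50 and 4.57 TPM, both above Adgrb1 in pool 2. Of the 26 genes considered outside the BAI group, 9 were detected, against 51.7% of protein-coding genes. No reads in either pool were held by 5 (Adgrf1, Adgrf3, Adgrg2, Adgrg5 and Adgrg7).

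The ligands were a minor part of the 27 genes with a C1q domain considered here. They made up 0.238% and 0.407% of the summed TPM, and 10 of the other genes had a higher mean than C1ql3. C1qtnf4, a secreted relative, led with 65.97 TPM in pool 1 and 102.16 in pool 2. Cbln1, which granule cells release to bridge neurexins and the Purkinje cell receptor GluD2, had 8.73 and 15.88 TPM, and its partner Cbln3 had 8.63 and 12.53. C1qb, a complement subunit of microglia, had 8.66 and 12.78 TPM, and C1qtnf5 had 6.05 and 8.02. Of the 23 others, 9 were detected, against 51.7% of protein-coding genes. Of the 9, 8 were higher in pool 2, against 41.4% of all genes, with a median log2 ratio of 0.49, and the ligand sum moved the same way; granule cell markers were higher in sum as well, and their part was not tested.

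Other known extracellular partners of BAI receptors and C1q-like proteins were detected for 8 of 13 genes, against 51.7% of protein-coding genes. Nrxn3, the neurexin bound by C1ql2 and C1ql3, had 61.31 TPM in pool 1 and 56.71 in pool 2, against 64.37 and 44.62 for Adgrb3. The integrin subunits Itgav (64.35 and 48.65 TPM) and Itgb5 (5.04 and 4.61 TPM), the Nogo receptor relative Rtn4rl1 (12.50 and 9.24 TPM) and the adhesion protein Nlgn1 (7.72 and 7.25 TPM) followed. Rtn4rl2, another Nogo receptor relative, had no reads in either pool.

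Cytoplasmic partners of the receptors were detected for 18 of 23 genes, against 51.7% of protein-coding genes. Rac1, the small GTPase that acts on actin, had 134.76 TPM in pool 1 and 117.27 in pool 2. Baiap2, an adaptor named for its binding to BAI1, had 66.38 and 60.98 TPM. Elmo1, which joins BAI receptors to Dock proteins, had 68.22 and 53.95 TPM, the GTPase regulator Abr 69.44 and 49.81, and the GTPase Rhoa 55.86 and 48.72. Of the 19 with a mean TPM of at least 1, 17 were lower in pool 2, against 58.4% of all genes, and 3 by at least 1.5-fold, against 7.24%, with a median log2 ratio of -0.23. Long transcripts were lower in pool 2 in general, and these shares are of genes of every length. The part of transcript length in these counts was not tested.

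**Figure D5:**
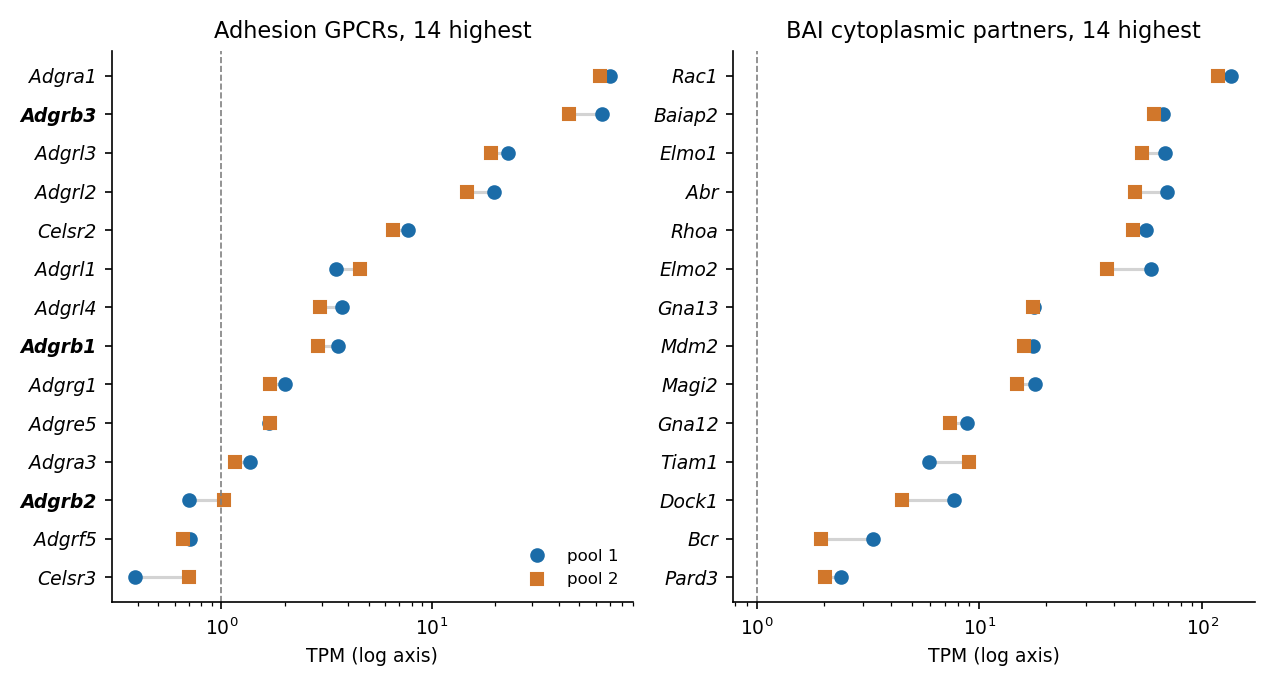
TPM (log axis) of the 14 highest of the adhesion receptor genes considered (left) and the 14 highest cytoplasmic partner genes of BAI receptors (right), in pool 1 (circles) and pool 2 (squares). The dashed line marks a TPM of 1. Adgrb3 ranks 2 among these adhesion receptors at 64.37 and 44.62 TPM, and Rac1 leads the partners at 134.76 and 117.27 TPM.

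Genes known to act in Purkinje cells at the climbing fibre synapse were detected for 19 of 20, against 51.7% of protein-coding genes. Plcb4, a phospholipase C of Purkinje cells, had 352.40 TPM in pool 1 and 177.34 in pool 2. The AMPA receptor subunit Gria2 had 241.18 and 145.76 TPM, and Gria3 had 88.77 and 59.16. Each of these 3 genes had a higher TPM than Adgrb3 in both pools. Of the 19 with a mean TPM of at least 1, 18 were lower in pool 2, against 58.4% of all genes, and 6 by at least 1.5-fold, against 7.24%, with a median log2 ratio of -0.38. As for the cytoplasmic partners, these shares are of genes of every length, and the part of transcript length was not tested.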

How the data were processed

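RNA was measured by RNA-seq in 2 pools of 50 Purkinje cells, laser-captured per the labels' protocol links. The authors quantified transcriptome alignments on mm10 with GENCODE M4, per the notes deposited with the files. The sources used here name no aligner, quantifier or strand setting. Expected counts, deposited by gene and by transcript, are the authors' estimates of reads, partly fractional and not normalized. TPM values correct for length, and the authors' scaling gives each library 1 total that includes spike-ins. Transcript shares were recomputed from TPM and set beside the authors' percent per transcript. Effective lengths in the deposited tables were 99 nt below the transcript lengths. Of 43346 mouse gene entries, 42462 were named from GENCODE M21, which also gave coordinates and transcript sequences on the same assembly, GRCm38. 26248 entries with numeric identifiers were left out.

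A gene was called detected at 1 TPM or more in each of the pools. The shares, sums and ratios were computed per pool, with mean and SD over the pools, and log values used a pseudocount of 1. Counting intervals are exact Poisson at 95%, and the limit for no reads is 3 counts. A transcript was called full-length when its coding sequence had at least 80% of the length of the gene's longest one. With 1 group no test was possible, and a 1.5-fold difference was the rule of size. Alternatives were count shares, protein-coding transcripts alone, each pool alone, other thresholds and pseudocounts, other scales (CPM, edgeR TMM and DESeq2 size factors on expected counts rounded to whole numbers, spike-ins, nuclear protein-coding genes) and length classes. Count shares of transcripts were chosen after seeing the data. TMM, DESeq2 size factors and the length-class medians were checked on simulated data with 200 changed genes.

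The genes and lists were chosen with earlier results of these data known. Named genes are the 7 members, the 5 genes with the highest mean TPM in each of 5 other lists, genes of these lists without reads in either pool, and the highest members of a marker list where a result needs them; Calb1, Car8, Itpr1, Ppp1r17, Slc1a6 and Slc17a6 were named after their values were seen. Results of some genes that this rule names are not reported here. Tools were Python 3.11.15 with biopython 1.88, scipy 1.17.1, pandas 2.3.3, numpy 2.4.6 and matplotlib 3.10.9, and R 4.3.3 with edgeR 4.0.16 and DESeq2 1.42.0.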

Additional observations from a re-analysis of the deposited data

How the results depend on the processing

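Of 63 alternative values that use both pools, 45 moved by less than the spread between the pools or the counting error of a ratio, or by under 1.5 times for a count of genes, 16 moved further and 2 reversed. Both reversals came with the spike-ins as the scale, where the log2 ratio of pool 2 over pool 1 was 0.14 for Adgrb3 and 0.42 for Adgrb1; set against its length class, the Adgrb3 ratio was -0.39. With expected counts in place of TPM, the share of Adgrb3 among receptors was 96.1%, that of C1ql3 among ligands 71.5%, the receptor to ligand ratio 298, and the share of Adgrb3-203 in its gene 33.3%. With protein-coding transcripts alone, the Adgrb3 share was 96.9% and that of Adgrb3-203 was 70.6%, while the leading models of Adgrb1 and Adgrb2 gave no value because they are not coding. The number of genes detected was 5 at a TPM of 0.1 and 1 at a TPM of 5. The share of Adgrb1 fell to 2.92% by counts and 2.12% with protein-coding transcripts, and that of Adgrb2-210 in its gene to 19.0% by counts. The 20 values from either pool alone say nothing about stability, since each must lie within 1 SD of the mean of both; their ranges were 91.9 to 93.8% for the Adgrb3 share, 60 to 60.7% for the C1ql3 share, 69.3 to 245 for the receptor to ligand ratio, 43.2 to 47.0% for Adgrb3-203 and 29.1 to 64.0% for Adgrb1-204. Other than where the construction gives it, the cause was not tested. No paired analysis was possible because the 2 pools belong to 1 group. Ligand values rest on 11 and 36.99 counts, and in pool 2 the counting interval of C1ql3 lay above those of C1ql2 and C1ql4, while every other pair of ligand intervals overlapped in that pool, as did all pairs in pool 1. The log2 ratios of C1ql3 and C1ql1, under 1.5-fold as reported, passed that size with a pseudocount of 0.01 (1.26 and 0.81). That of C1ql3 also passed it with 0.1 (0.95). With the spike-ins as the scale, C1ql3, C1ql1 and Adgrb2 passed it too (0.94, 0.77 and 0.91). That scale takes the spike-ins' own median ratio (-0.66) away from the ratio of every gene. The shift is itself past 1.5-fold, so these passes say nothing particular to the genes named.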
